A study of Mus musculus with 2 samples.

Results

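The miR-26 family of the mouse is encoded by 3 microRNA genes, Mir26a-1, Mir26a-2 and Mir26b, each inside an intron of a Ctdsp phosphatase gene. The 3 genes were chosen by symbol and not by their values, though with earlier results of these data known. They are among the 1973 microRNA genes counted in newborn mouse skeletal muscle. Libraries of RNA shorter than 30 bases were made from 2 muscle samples of the strain B6NCrl, taken at 0 days after birth and each from 1 pup, and both form 1 group. No treatment, engineered allele or other condition was compared, and sex was not recorded. The samples are labelled as biological replicates 1 and 2 but carry the same donor record, so it is not certain that they come from different animals.

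MicroRNAs are cut from hairpin precursors, and either arm of the hairpin (5p or 3p) can give a mature microRNA that pairs with messenger RNAs and lowers their output. Target choice rests mainly on the seed, the short stretch near the 5′ end of the mature microRNA. The host genes encode small phosphatases that act on the C-terminal domain of RNA polymerase II. In muscle, miR-26a is known to increase during differentiation of myoblasts and to target Ezh2, a histone methyltransferase that holds muscle genes silent.

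The mature sequences are shown because they decide which reads can be traced to a gene. They were taken from RefSeq (GRCm38.p6, the assembly of the mm10 files), where all 3 genes were found, and are printed 5′ to 3′ with the seed, bases 2 to 8, in capitals.
miR-26a-5p, from Mir26a-1 and from Mir26a-2: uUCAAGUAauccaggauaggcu
miR-26b-5p, from Mir26b: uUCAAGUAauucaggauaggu
miR-26a-1-3p, from Mir26a-1: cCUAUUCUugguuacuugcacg
miR-26a-2-3p, from Mir26a-2: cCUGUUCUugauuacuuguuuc
miR-26b-3p, from Mir26b: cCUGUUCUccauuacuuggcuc

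The 5p arms of all 3 genes carried 1 seed, UCAAGUA. No other gene had it among 1738 mature entries of 1005 genes in the RefSeq table. The 5p arm of Mir26a-1 was identical to that of Mir26a-2 over all 22 bases. Counted from 1 at the 5′ end, miR-26b-5p differed from it by C11U and C21U over the 21 bases compared, both outside the seed. The 3p arms differed more. Mir26a-2 and Mir26b carried the same 3p seed, CUGUUCU, found at 4 genes of the RefSeq table in all, while Mir26a-1 had CUAUUCU. Between Mir26a-1 and Mir26a-2 the 3p arms differed at 6 positions, A4G, G11A, C19U, A20U, C21U and G22C. Between Mir26a-2 and Mir26b they differed at 4, U9C, G10C, U19G and U20C.

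The hairpins follow with the 5p mature microRNA in capitals, to show what flanks it at each gene.
Mir26a-1, chr9:119031796-119031885, plus strand: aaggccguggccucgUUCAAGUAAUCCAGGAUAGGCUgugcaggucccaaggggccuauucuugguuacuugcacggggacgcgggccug
Mir26a-2, chr10:126995530-126995613, plus strand: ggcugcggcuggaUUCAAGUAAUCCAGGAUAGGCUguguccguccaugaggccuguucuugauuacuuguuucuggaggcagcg
Mir26b, chr1:74394310-74394394, plus strand: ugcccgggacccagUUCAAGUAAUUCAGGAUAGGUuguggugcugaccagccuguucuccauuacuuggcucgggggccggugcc

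All 3 genes are transcribed from the strand of their host, and the annotation (GENCODE M21, GRCm38) places 0 genes on the other strand at each of them. Mir26a-1 (ENSMUSG00000065513.1) lies in intron 5 of 7 of Ctdspl, an intron of 3283 bases, 105.3 kb from the start of a host of 117.5 kb. Mir26a-2 (ENSMUSG00000065430.1) lies in intron 5 of 7 of Ctdsp2, an intron of 1946 bases, 16.8 kb into a host of 21.3 kb. In 2 of the 4 annotated Ctdsp2 transcripts an exon overlaps its hairpin by 1 base. Mir26b (ENSMUSG00000065468.1) lies in intron 4 of 6 of Ctdsp1, an intron of 564 bases, 2.80 kb into a host of 5.78 kb. The hosts thus run from compact to long, and Mir26b sits in the shortest of them. Intron numbers are those of the principal coding transcript of each host.

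As predicted by RNAfold, the minimum free energy was -49.4 kcal/mol for the hairpin of Mir26a-1 (90 bases), -44.5 for Mir26a-2 (84 bases) and -43.5 for Mir26b (85 bases). The median over all 1005 RefSeq hairpins was -32.0 kcal/mol at a median length of 79 bases. Of all these hairpins, 5.97%, 12.5% and 14.6% had a lower energy than those of Mir26a-1, Mir26a-2 and Mir26b. Energies were not scaled to length, and the members are longer than the median hairpin. In the predicted folds 20 of 22, 19 of 22 and 18 of 21 bases of the 5p arm were paired in Mir26a-1, Mir26a-2 and Mir26b. GC content of the hairpins was 60.0%, 53.6% and 58.8%, against a median of 51.7%.

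Which reads can count for each gene follows from these sequences, because the authors set apart reads that fit more than 1 place. Mir26a-1 and Mir26a-2 have a stretch of 25 bases in common. It begins at the first base of miR-26a-5p and runs 3 bases past its end, and the hairpins differ at the base on either side. A read of miR-26a-5p as annotated therefore fits both genes and was counted for neither. Considering reads of 20 to 25 bases that start within 2 bases of the 5p start, 15 of 30 possible reads fit 1 gene alone. All 12 that start before the annotated first base of miR-26a-5p do so, and 3 of the 18 that start at or after that base. The 3p arms and the loop can be traced to 1 gene. For Mir26b all 30 such reads fit its hairpin alone, and no stretch of 18 bases or more recurs in another RefSeq hairpin. These figures are for exact matches among hairpins, since no genome sequence was used here and the number of mismatches allowed by the authors is not given in the sources used here.

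**Figure D1:**
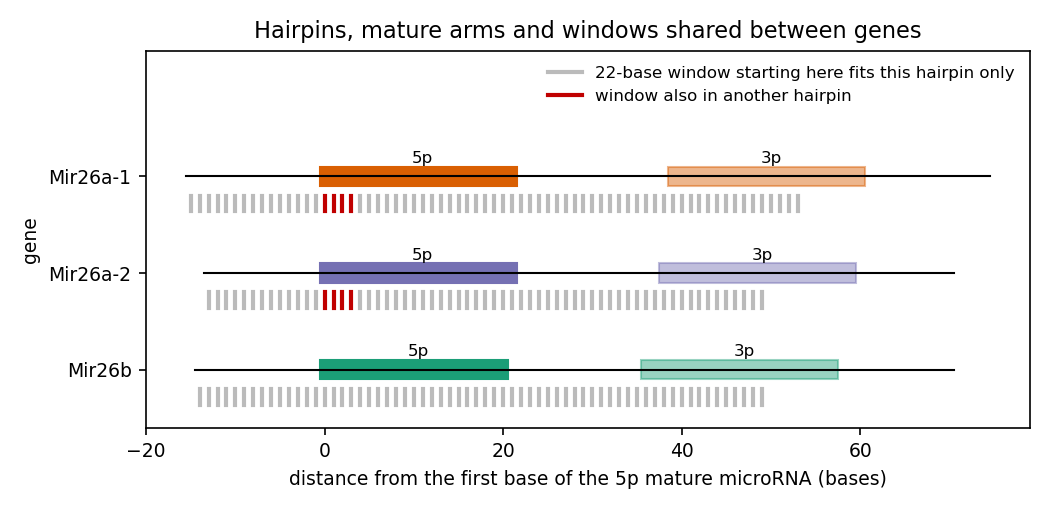
Hairpins of Mir26a-1, Mir26a-2 and Mir26b aligned at the first base of the 5p mature microRNA (x axis, distance in bases), with mature arms as boxes and, beneath, 1 tick for the start of each window of 22 bases, red where the window also occurs in another hairpin. Red ticks mark 4 of 69 windows in Mir26a-1, 4 of 63 in Mir26a-2 and 0 of 64 in Mir26b, and they fall on the start of the 5p arm.

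Mir26b gave nearly all of the family's counts, and both Mir26a genes were low. All values are reads on the annotated strand that fit 1 place, given as counts or as CPM, counts scaled to a library total of 1000000 annotated-strand microRNA counts. Mir26b had 154672 counts in replicate 1 and 175544 in replicate 2. Scaled, these were 19441 CPM (95% exact counting interval 19345 to 19537) and 16230 CPM (16154 to 16305), a mean of 17835 ± 2271 (SD, n = 2). Replicate 1 was the higher, and the counting intervals did not overlap.

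Mir26a-2 had 497 counts in replicate 1 and 401 in replicate 2. These were 62.5 CPM (57.1 to 68.2) and 37.1 CPM (33.5 to 40.9), a mean of 49.8 ± 18.0 (SD, n = 2). Replicate 1 was again the higher, and the counting intervals did not overlap. Mir26a-1 had 61 and 63 counts, 7.67 CPM (5.86 to 9.85) and 5.82 CPM (4.48 to 7.45), a mean of 6.75 ± 1.30 (SD, n = 2). Its counting intervals overlapped. The order Mir26b, Mir26a-2, Mir26a-1 was the same in both libraries, and the values of the 3 genes did not overlap. For both Mir26a genes these levels are lower limits for the loci, since reads of the shared stretch are missing from them.

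**Figure D2:**
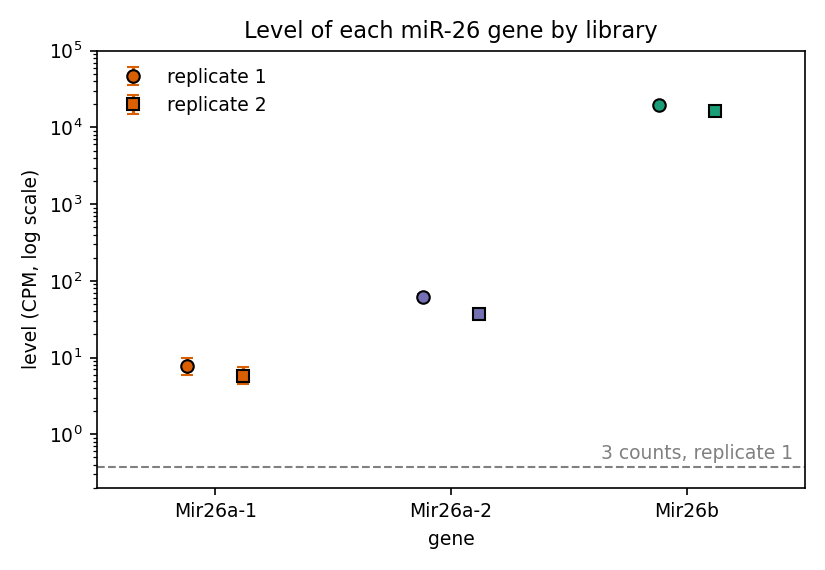
Level of each miR-26 gene in CPM (y axis, log scale) in replicate 1 (circles) and replicate 2 (squares), with 95% exact counting intervals as bars, mostly smaller than the symbols, and the level of 3 counts in replicate 1 (0.377 CPM) as a dashed line. Mir26b stands at 19441 and 16230 CPM, Mir26a-2 at 62.5 and 37.1 CPM and Mir26a-1 at 7.67 and 5.82 CPM.

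The family took 1.95% of annotated-strand microRNA counts in replicate 1 and 1.63% in replicate 2, a mean of 1.79% ± 0.229 (SD, n = 2). Mir26b made up 99.6% and 99.7% of that. Mir26b exceeded the sum of both Mir26a genes 277-fold in replicate 1 (95% exact counting interval 255 to 302) and 378-fold in replicate 2 (345 to 415), a mean of 328 ± 71.5 (SD, n = 2). Per base of hairpin the mean was 327, so the like lengths of the hairpins did not change it. The ratio compares counts at the loci and is an upper limit for the microRNAs, since the annotated miR-26a-5p is missing from the denominator. The reads that would bring both Mir26a genes level with Mir26b numbered 154114 and 175080. They equal 3.35% and 3.10% of the 4594061 and 5655304 reads that fitted more than 1 place. How many of those reads are miR-26a-5p cannot be read from the tables.

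Between the Mir26a genes, Mir26a-2 exceeded Mir26a-1 8.15-fold in replicate 1 (6.24 to 10.8) and 6.37-fold in replicate 2 (4.87 to 8.44), a mean of 7.26 ± 1.26 (SD, n = 2). The intervals overlapped. Mir26a-1 held 10.9% and 13.6% of the counts of both. The tables do not separate the arms, so it was not tested whether these reads came from the 3p arm or from 5p reads that reach past the shared stretch. On the opposite strand the counts were 1 and 0 at Mir26a-1 and 0 in both libraries at Mir26a-2 and Mir26b. A count of 0 allows up to 3 counts, 0.377 CPM in replicate 1 and 0.277 CPM in replicate 2.

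By level, 365 of the 1973 genes (18.5%) had at least 10 counts in both libraries and are called detected, the 3 miR-26 genes among them. Mir26b ranked 14 in replicate 1 and 17 in replicate 2, with 95.3% of detected genes below its mean. Next above it by mean CPM stood Mir23a, with 17615 and 18820 CPM, and Mir379, with 16997 and 20423 CPM. The values of both overlapped with those of Mir26b. Mir23a shares a stretch of 20 bases with another gene, so reads may be missing from its level. Mir22, next below with 14504 and 15170 CPM, did not overlap with Mir26b. Mir26a-2 ranked 199 and 207, and Mir26a-1 277 and 281. The 2 genes on either side of each in the order of means overlapped with it, so their exact places are not resolved.

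A mature sequence listed by RefSeq was found in the GENCODE hairpins of 1142 genes of the tables, some of them copies without a RefSeq entry of their own. Of these, 324 carried one that also occurs in the hairpin of another gene of the tables, as Mir26a-1 and Mir26a-2 do, and 818 did not, as for Mir26b. The 42 detected genes of the first kind had a median of 29.4 CPM and none stood above 10000 CPM. The 293 detected genes of the second kind had a median of 108 CPM, and 20 stood above 10000. Genes of the first kind together took 0.874% and 0.654% of counts in replicates 1 and 2. Among these 42 genes Mir26a-2 ranked 19 and Mir26a-1 ranked 34, so neither stood at an end of the range. Copies outside these tables were not searched, so some genes of the second kind may also have a copy.

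**Figure D3:**
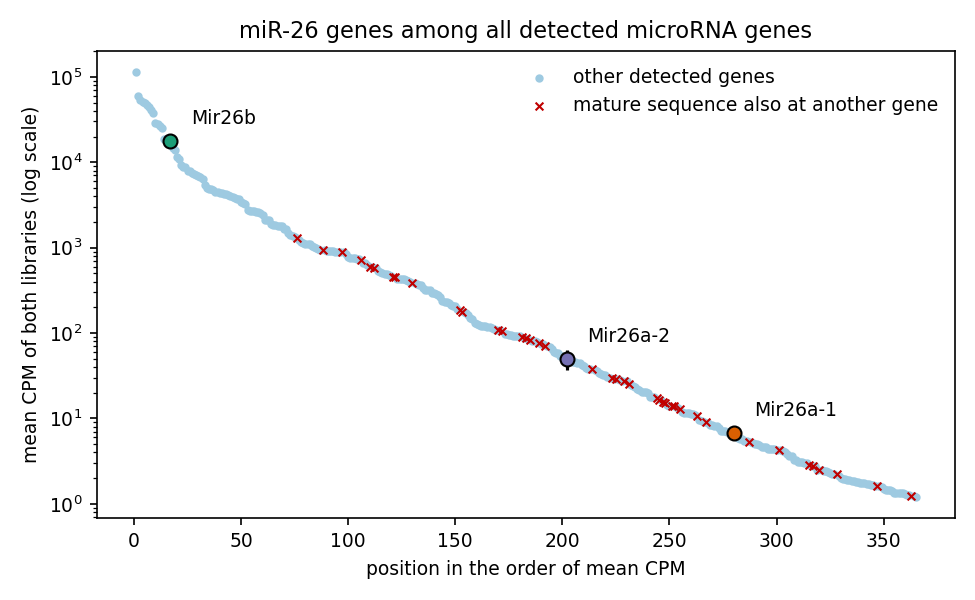
Mean CPM of both libraries (y axis, log scale) against position in the order of means for the 365 detected genes. Circles mark the miR-26 genes with a line from 1 library to the other, and red crosses other genes whose mature sequence also occurs at another gene. Mir26b stands at position 17, above all red crosses, and Mir26a-2 and Mir26a-1 at positions 202 and 280 among them.

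By likeness of level, measured as the distance of log2(CPM + 1) over the 2 libraries, the 5 detected genes nearest to Mir26b were Mir23a (0.26), Mir379 (0.38), Mir22 (0.43), Mir434 (0.44) and Mir23b (0.56). Those nearest to Mir26a-2 were Mir221 (0.19), Mir155 (0.29) and Mir187 (0.31). Those nearest to Mir26a-1 were Mir1198 (0.02), Mir346 (0.04) and Mir34b (0.10). With 2 libraries this is a likeness in level and says little about pattern. For both Mir26a genes the level is a lower limit, whereas the genes named as nearest to them share no stretch of 20 bases with another gene counted. Of the genes nearest to Mir26b, Mir23a and Mir23b do share such a stretch, so reads may be missing from their levels.

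Between the libraries, the scaled counts of the 3 genes differed by less than 2-fold. For both Mir26a genes these counts lack the annotated miR-26a-5p, so their ratios do not measure it. Ratios are of replicate 1 over replicate 2 on the log2 scale, and trimmed-mean (TMM) scaling shifted all of them by -0.25 against library totals. With TMM the ratio was 0.02 for Mir26b (95% exact counting interval 0.01 to 0.02), 0.51 for Mir26a-2 (0.31 to 0.70) and 0.15 for Mir26a-1 (-0.38 to 0.68). Under library totals the ratios were 0.26, 0.75 and 0.40. All were above 0 under either scaling, and the interval of Mir26a-1 included 0 under both. At least 2-fold apart were 30 of 365 detected genes (8.22%), 26 of them higher in replicate 1 (7.12%) and 4 in replicate 2 (1.1%), and 0 of the 3 miR-26 genes. Under library totals the split was 41 and 1. With 1 library on each side this difference has no replicate check, and no p-value is given.

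Mir26b was close to the same level in both libraries after TMM scaling. The 12 detected genes within 2-fold of its mean all had larger absolute log2 ratios, from -0.59 to 0.05, with a median absolute value of 0.22. Under library totals 4 of these 12 had a larger absolute ratio than Mir26b. For Mir26a-2, 23 of 58 genes within 2-fold of its mean had a larger absolute ratio, and the median was 0.35. For Mir26a-1 they were 42 of 53, with a median of 0.34. The differences of both Mir26a genes were thus inside the range of genes of like level.

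Ratios between members need no scaling, and for both Mir26a genes they again leave out the annotated miR-26a-5p. Mir26a-2 relative to Mir26b was 1.41-fold higher in replicate 1 than in replicate 2 (95% exact counting interval 1.23 to 1.61). Mir26a-1 relative to Mir26b differed 1.10-fold (0.760 to 1.59), and Mir26a-2 relative to Mir26a-1 1.28-fold (0.863 to 1.90), and both intervals included 1. Genes of the miR-200 family (Mir200a, Mir200b, Mir200c, Mir429 and Mir141), typical of epithelial cells, took 0.0213% of counts in replicate 1 and 0.00428% in replicate 2. All 5 were at least 2-fold higher in replicate 1, as were 7.12% of detected genes. Mir203 and Mir205 of skin, looked at after values were seen, had log2 ratios of -0.12 and -0.07, and with them the 7 genes took 0.0531% and 0.0334% of counts. The erythroid Mir451a and Mir144 were higher in replicate 1 too, with log2 ratios of 0.83 and 0.20. Median log2 ratios were -0.32 for endothelial, 0.03 for smooth muscle, -0.04 for leukocyte, -0.02 for cartilage and -0.18 for muscle genes. The part of any of these genes in the ratio of Mir26a-2 was not tested.

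**Figure D4:**
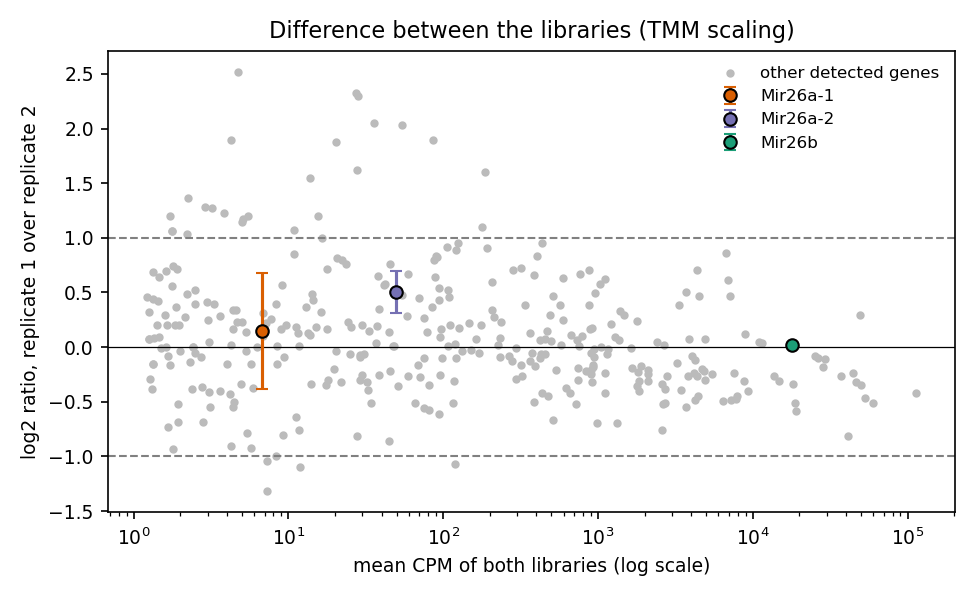
Log2 ratio of replicate 1 over replicate 2 after TMM scaling (y axis) against mean CPM (x axis, log scale) for the 365 detected genes, with the miR-26 genes in colour, their 95% exact counting intervals as bars, and dashed lines at 2-fold. Mir26b lies at 0.02, Mir26a-1 at 0.15 and Mir26a-2 at 0.51, all inside the dashed lines.

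Other microRNAs reported to act on Ezh2 were listed for comparison, and 5 of 6 were found by symbol, all of them detected. Mir214, which lies with a miR-199 gene in an antisense transcript of Dnm3, led with 4891 CPM ± 759 (SD, n = 2), below Mir26b. The place of miR-26a among them cannot be read from the counts, since the annotated miR-26a-5p was counted for neither of its genes. Mir101b had 1141 CPM ± 104 and Mir101a 127 ± 26.1, and each shares a stretch of 20 bases with another gene. Mir138-2 had 16.5 CPM ± 9.51. Of the 5 genes, 2 were at least 2-fold higher in replicate 1, Mir138-1 and Mir138-2, with log2 ratios of 1.55 and 1.00, where 7.12% of all detected genes were. Their mature sequence also occurs at another gene, so their levels are lower limits as for Mir26a. The median ratio was 0.18, against 0.01 for all detected genes.

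Some other microRNA families whose copies lie in introns of paralogous host genes were listed as well, namely Mir128, Mir103 with Mir107, and Mir218. The list is not complete. Mir208b and Mir499, which lie in myosin genes, were not in it. They had 747 and 493 CPM and share no stretch of 20 bases with another gene. All 7 listed genes were detected, and all 7 share such a stretch. Mir128-1, in R3hdm1, had 456 CPM ± 41.1 (SD, n = 2), and Mir128-2, in Arpp21, 389 ± 48.9. Mir107, in Pank1, had 236 CPM ± 54.7, and Mir103-2, in Pank2, 15.5 ± 10.1. The 7 genes together took 0.111% ± 0.00650 of counts, against 1.79% for the 3 miR-26 genes. Of the latter, 99.7% was Mir26b, which shares no such stretch, so the shares are not counted alike. Both Mir26a genes, which share one, together had 56.5 CPM ± 19.3. At least 2-fold apart were 2 of the 7, Mir103-2 and Mir218-2, with log2 ratios of 1.20 and 1.07, where 8.22% of all detected genes were. The median of the list was 0.49, against 0.01 for all detected genes.

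Replicate 1 held 16398945 reads and replicate 2 held 21037937, and annotated-strand microRNA counts made up 48.5% and 51.4% of them. The tissue label was checked against 8 muscle microRNAs. Of these, 7 were found by symbol and 6 detected, and they took 10.9% and 12.3% of counts. Mir206, with 107144 and 120690 CPM, gave nearly all of this share, and Mir133b was next with 841 and 823 CPM. Lowest of those detected were Mir1a-1, with 10.1 and 6.47 CPM, and Mir133a-1, with 5.91 and 5.55 CPM. Mir133a-2 was not detected. Both Mir133a genes share a stretch of 20 bases with another gene, so reads that fit both may be missing. Mir1a-2 was not found, and stretches shared with it were not searched. Markers of other cell types were present too. The endothelial Mir126a took 4.50% and 4.74%, the smooth muscle genes 3.15% and 2.85%, erythroid genes 0.0583% and 0.0286%, and cartilage Mir140 0.126% and 0.107%. Leukocyte genes took 0.0574% and 0.0448%, from 2 of 3 listed, since Mir142 was not found by symbol. Of 5 neuronal genes found, 0 were detected and 3 were at 0 in both libraries, but all 5 share a stretch of 20 bases with another gene, so these counts do not show absence. In whole tissue a change in the share of a cell type and a change in RNA per cell cannot be told apart.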

How the data were processed

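The reads of 2 small RNA libraries were mapped to mm10 and counted on GENCODE M4, per the readme text the authors deposited. The aligner, the counting program and the mismatch limit were not given in the sources used here. The authors deposited raw counts for 1973 microRNA genes, on both strands and on each strand. Which strand column is the annotated one was inferred from the values, as that with most counts. The 4 rows that name no gene, among them reads that fit more than 1 place (28.01% and 26.9%), stayed out of library sizes.

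Symbols and positions came from GENCODE M21 by gene ID (1894 of 1973 matched). Shared stretches were exact matches, among RefSeq hairpins for the members and GENCODE hairpins for other genes. Folds came from RNAfold 2.7.2. Values were computed with pandas 2.3.3, numpy 2.4.6 and scipy 1.17.1 (Python 3.11.15), and matplotlib 3.10.9 made the figures. Ratios between libraries used TMM factors (1.09 and 0.918) of edgeR 4.0.16 in R 4.3.3, over genes whose counts reached 10 in each library, and were tested on simulated data with known changes. Intervals are exact (Clopper-Pearson, 95%), and they and the floor of 3 counts cover counting error only. The spread between the samples may be technical.

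The members and lists were chosen with earlier results of these data known. Other genes named are the 5 nearest in level to Mir26b, the 3 nearest to each Mir26a gene, up to 4 of each list on Ezh2, paralogous hosts and muscle, and cell type markers. Mir138-1, Mir218-2, Mir1a-1, Mir133a-1, Mir133a-2, Mir203, Mir205 and the split by shared mature sequence were picked out after values were seen. Alternatives were unstranded counts, other denominators, counts per hairpin base, 1 added count, DESeq2 1.42.0 size factors, library totals, count minimums of 1 and 50, a fold minimum of 1.5 and each replicate left out.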

Additional observations from a re-analysis of the deposited data

How the results depend on the processing

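The family's share of counts was 1.79%, and 0.892% of all reads and 1.15% of microRNA counts plus reads that fit more than 1 place. Unstranded counts, or a denominator without genes that share a 20-base stretch, moved it by less than 1 SD. It lay between 1.63% and 1.95% with either replicate left out. The ratio of Mir26b to both Mir26a genes ranged from 277 to 378, and that of Mir26a-1 to Mir26a-2 from 0.123 to 0.157, with either replicate left out. Both moved by less than 1 SD with unstranded counts, counts per hairpin base and 1 added count. Genes at least 2-fold apart numbered 30, and 115 with a count minimum of 1, 15 with a minimum of 50, and 84 at a fold minimum of 1.5. In each of these and of the other settings run, each changed alone, 0 miR-26 genes passed. Library totals, with a log2 ratio of 0.75 for Mir26a-2, were not combined with the lower fold minimum. The share of passing genes that were higher in replicate 1 was 86.7%, and 97.6% under library totals, 67.0% with a count minimum of 1 and 71.4% at the lower fold minimum. The log2 ratio of Mir26b was between 0.00 (DESeq2 size factors) and 0.26 (library totals). Depth limits Mir26a-1 most, with 61 and 63 counts. No paired analysis was possible because there is 1 group. Counts of genes could not be recomputed with a replicate left out, since 1 library alone gives no ratio.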

Other observations

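Counts on the opposite strand were few at the miR-26 genes, although over all genes they made up 10.7% and 11.9% of the counts of both strands in replicates 1 and 2. They fell on few genes. Of 296 genes with at least 100 counts over both strands and both libraries, 251 had 0 counts on the opposite strand and 16 had more than 1% of their counts there. None of the 16 was a miR-26 gene.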
